A study of Mus musculus with 4 samples.

Results

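The 10 genes described here are the nuclear effectors of the Hippo pathway and 4 of the transcripts most often read as their output. They are the coactivators Yap1 and Wwtr1 (TAZ), the DNA-binding partners Tead1, Tead2, Tead3 and Tead4, and the targets Ankrd1, Amotl2, Ctgf and Cyr61. Their rows were found in the count table by symbol, the genes having been chosen with earlier results of these data known, and all 10 were found among the 53465 genes of the table, each with counts above the filter for testing. The libraries came from immortalized mouse striatal cells of strain C57/BL6 with a knock-in of Htt exon 1. HD-homo cells (STHdhQ111/Q111, 2 libraries) carry the mutant exon with 111 glutamines on both alleles, and control cells (STHdhQ7/Q7, 2 libraries) carry the wild-type exon with 7. Both groups were given harringtonine, which stops new initiation while ribosomes already on a message run on, and then cycloheximide, and by the series' design text and the methods mRNA was then taken from the polysome fractions. The sample labels instead give the molecule as total RNA, and if they hold, every value below is a level in the whole cell and not on polysomes. Each group is 1 cell line, so the repeat and any other difference between the lines cannot be told apart. Nor can more message in the cell be told apart from more of it held on ribosomes, and for these cultures fewer cells of a kind and less RNA per cell cannot be told apart either.

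Hippo signalling is a kinase cascade that links cell contact, shape and tension to growth. When it is active, the kinases MST1/2 and LATS1/2 phosphorylate YAP and TAZ, which are then held in the cytoplasm or degraded. When it is inactive, YAP and TAZ enter the nucleus, bind TEAD factors on DNA and turn on genes for secreted matrix signals, cytoskeletal proteins and feedback inhibitors. Since that control acts mainly on the proteins, mRNA levels of Yap1 or Wwtr1 do not report YAP or TAZ activity.

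Total counts were 12372090 and 14074182 in the HD-homo libraries, against 14122706 and 15472808 in the control libraries. Member counts ran from 532 to 44016 per library, so that counting error was at most 4.34%. Htt itself had 115 and 57 counts in HD-homo, against 383 and 429 in control, and was lower in HD-homo (log2 fold change -2.08, edgeR adjusted p = 3.24e-04). Such counts cannot show the repeat length. The cells were checked against known markers. Of 12 markers of striatal projection neurons, the dopamine receptor genes Drd1 and Drd2 had 0 counts in every library and only 4 passed the filter. The summed level of the 12, most of it from the transcription factor Foxp1, was 152 and 124 CPM (counts scaled to library size with TMM factors) in HD-homo and 61.6 and 66.5 CPM in control. Foxp1 (log2 fold change 1.16, edgeR adjusted p = 0.00125) and Ppp1r1b (2.19, edgeR adjusted p = 0.00990) were called higher, Ppp1r1b with 14 and 20 counts in HD-homo against 4 and 4 in control. Penk was not called. The adenosine receptor gene Adora2a went the other way, with 7 and 3 counts in HD-homo against 45 and 26 in control (log2 fold change -2.66, edgeR adjusted p = 0.00286). Tac1 had 0 and 0 counts in HD-homo against 4 and 4 in control. Of 8 mesenchymal markers, 3 (Col1a1, Col1a2 and Pdgfra) were higher in HD-homo and 0 lower. Their summed level, most of it from Col1a1, was 5583 and 5392 CPM in HD-homo against 1117 and 2068 CPM in control, the sum being over all 8. The endothelial list summed to 7.70 and 12.6 CPM in HD-homo and 28.4 and 52.3 CPM in control, nearly all of it from Flt1, which was lower (log2 fold change -2.07), and the oligodendrocyte list to 4.43 and 2.92 CPM in HD-homo and 0.212 and 0.263 CPM in control, mostly from Mbp, which was higher (5.42). The microglial list, mostly Tmem119, summed to 28.2 and 26.1 CPM in HD-homo and 39.7 and 41.9 CPM in control, with Csf1r higher (1.68) and Cx3cr1, Aif1 and Itgam at 0 counts. The astrocyte list summed to 7.31 and 5.26 CPM in HD-homo and 4.24 and 3.41 CPM in control, with no call. The part of these other-cell markers in the differences of the members was not tested. Among the members, Cyr61 was 2.05-fold apart between the HD-homo libraries, a larger gap than 95.7% of genes showed there.

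TEAD factors, alone or with YAP and TAZ, bind a core motif spelled GGAATG, or CATTCC when read on the other strand. The promoters of 3 target genes are shown because targets of YAP are read through this motif, whose binding factors are among the members. Each is the stretch of 250 bases before the start that RefSeq annotates on GRCm38.p6, written in the direction of transcription, with the motif in capitals. They are Ankrd1 at chr19:36119845-36120094 (minus strand), Amotl2 at chr9:102717554-102717803 (plus strand) and Cyr61 at chr3:145649986-145650235 (minus strand; listed by RefSeq as Ccn1).
Ankrd1: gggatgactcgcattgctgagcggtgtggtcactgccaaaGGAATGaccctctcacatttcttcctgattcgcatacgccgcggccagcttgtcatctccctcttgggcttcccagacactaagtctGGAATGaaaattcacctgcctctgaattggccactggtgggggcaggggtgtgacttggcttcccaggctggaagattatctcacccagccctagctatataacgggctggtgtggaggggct
Amotl2: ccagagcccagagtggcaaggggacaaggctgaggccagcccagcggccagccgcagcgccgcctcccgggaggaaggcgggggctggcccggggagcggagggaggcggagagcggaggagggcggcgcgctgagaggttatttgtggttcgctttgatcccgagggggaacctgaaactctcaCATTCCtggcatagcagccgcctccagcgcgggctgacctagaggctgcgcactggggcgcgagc
Cyr61: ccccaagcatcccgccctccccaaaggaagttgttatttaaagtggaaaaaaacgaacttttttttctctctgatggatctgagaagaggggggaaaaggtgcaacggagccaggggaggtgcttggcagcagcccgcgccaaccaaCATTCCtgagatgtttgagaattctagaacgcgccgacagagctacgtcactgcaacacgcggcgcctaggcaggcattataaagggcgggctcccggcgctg

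Ankrd1 held the motif at 210 and 123 bases before its start, Cyr61 at 103 and Amotl2 at 65. These distances are from the RefSeq starts, and the stretches of Ankrd1 and Amotl2 lie inside the whole-gene spans that GENCODE M21 annotates. In windows of 300 bases, which add 50 bases after the start, the motif was found in 6 of the 7 member genes that had an entry. Among all 32851 promoters of the same length, 14.7% held it, and 16.6% of all genes had it in at least 1 promoter. Yap1 held it at 141 bases before its start and Wwtr1 at 136 and 170 before its 2 starts, which are the same bases of the genome. Of the 3 starts of Tead3, 2 had the motif. Tead2 had no match in its window, and Tead1, Tead4 and Ctgf were without an entry. Of 12 other YAP target genes with an entry, 4 held it. A match of 6 letters is a description of the sequence and was not tied to binding in these cells.

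**Figure D1:**
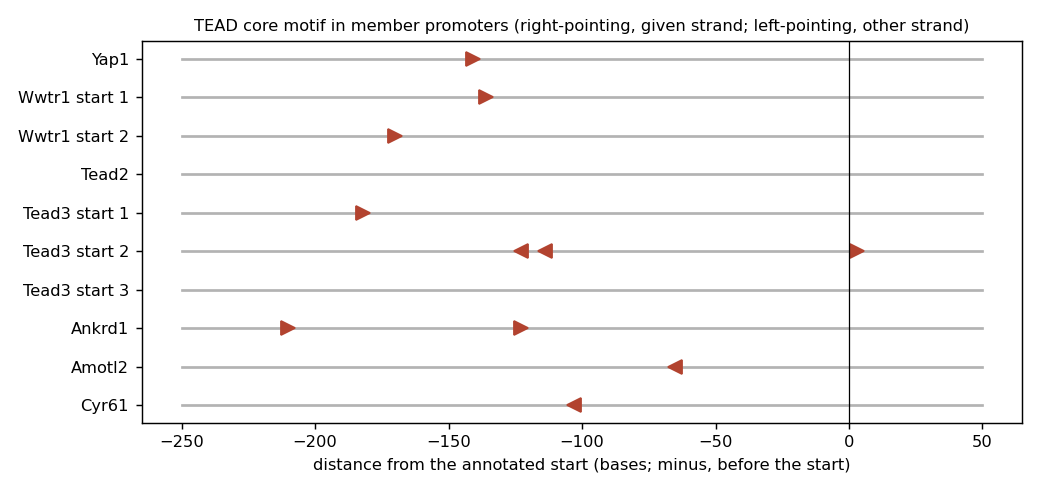
Positions of the TEAD core motif in the promoter windows of 7 member genes, with distance from the annotated start in bases on the x axis and 1 line per start. Triangles mark matches on the given strand (pointing right) or the other strand (pointing left), and the windows of Tead2 and of the third start of Tead3 hold none.

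Within the family, 3 members were lower in HD-homo cells, none was higher and 7 did not pass the test (edgeR's quasi-likelihood test, Benjamini-Hochberg adjusted p under 0.05 over all genes). The 3 were Tead1, Tead2 and Tead4, all of them TEAD factors. Of all 12961 tested genes, 21.2% were called, 10.4% higher and 10.9% lower. By unadjusted p under 0.05, 1 member was higher and 4 were lower, beside 1914 higher and 2058 lower of the 12961 tested genes. Both DESeq2 and limma-voom called 0 members higher and 3 lower. Over all genes, DESeq2 called 1203 higher and 1287 lower, and limma-voom 1301 higher and 1376 lower. The median log2 fold change of the members was -0.29, against 0.0017 over all tested genes. With 1 library left out, its group holds only 1, and the spread in the fit comes from the other group alone. Calls gained or lost in such fits therefore describe how far a result rests on a library and are not replicated tests. Without control replicate 1 no member was called lower, without control replicate 2 or HD-homo replicate 2 there were 2, and there were 3 when HD-homo replicate 1 was left out.

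Tead2, a TEAD factor of early neural tissue in the mouse embryo, was at 133 and 118 CPM in the HD-homo libraries, against 268 and 213 CPM in the control libraries. Both HD-homo values lay below both control values, and the means differed by 1.91-fold. The log2 fold change was -0.93 (standard error, SE, 0.21 and edgeR adjusted p = 0.00520), and it was -0.75, with no call, without control replicate 1. Tead2 lies on chr7:45215753-45233644 of GRCm38.

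Tead1, which is broadly expressed and needed for heart growth in the mouse, was at 74.9 and 55.7 CPM in HD-homo and at 109 and 106 CPM in control. The groups did not overlap. The control libraries were within 1.03-fold of each other and the HD-homo libraries 1.34-fold apart. Its log2 fold change was -0.72 (SE 0.22, edgeR adjusted p = 0.0297). Without HD-homo replicate 2, the lower of the HD-homo pair, it was -0.52 and was not called. The call was also lost without either control library or with scaling to total counts in place of TMM (edgeR adjusted p = 0.0518). Tead1 lies on chr7:112679318-112906807.

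Tead4, the TEAD factor that sets up the trophectoderm in the mouse embryo, was at 41.4 and 50.8 CPM in HD-homo, against 82.0 and 67.8 CPM in control. Again no HD-homo value reached a control value. In the fit, the log2 fold change was -0.70 (SE 0.22, edgeR adjusted p = 0.0381). Its call was lost without HD-homo replicate 1 (log2 fold change -0.54) or control replicate 1 (-0.55), and when every library had to have at least 10 counts (edgeR adjusted p = 0.0537). Tead4 lies on chr6:128224288-128300823.

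Tead3, known for its expression in the human placenta, was not called. It was at 44.9 and 47.7 CPM in HD-homo, against 42.7 and 39.6 CPM in control, with both HD-homo libraries above both control libraries. Its log2 fold change was 0.17 (95% interval -0.29 to 0.63, edgeR adjusted p = 0.656). Whether it differed from the other TEAD genes in its change was not tested by a model.

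**Figure D2:**
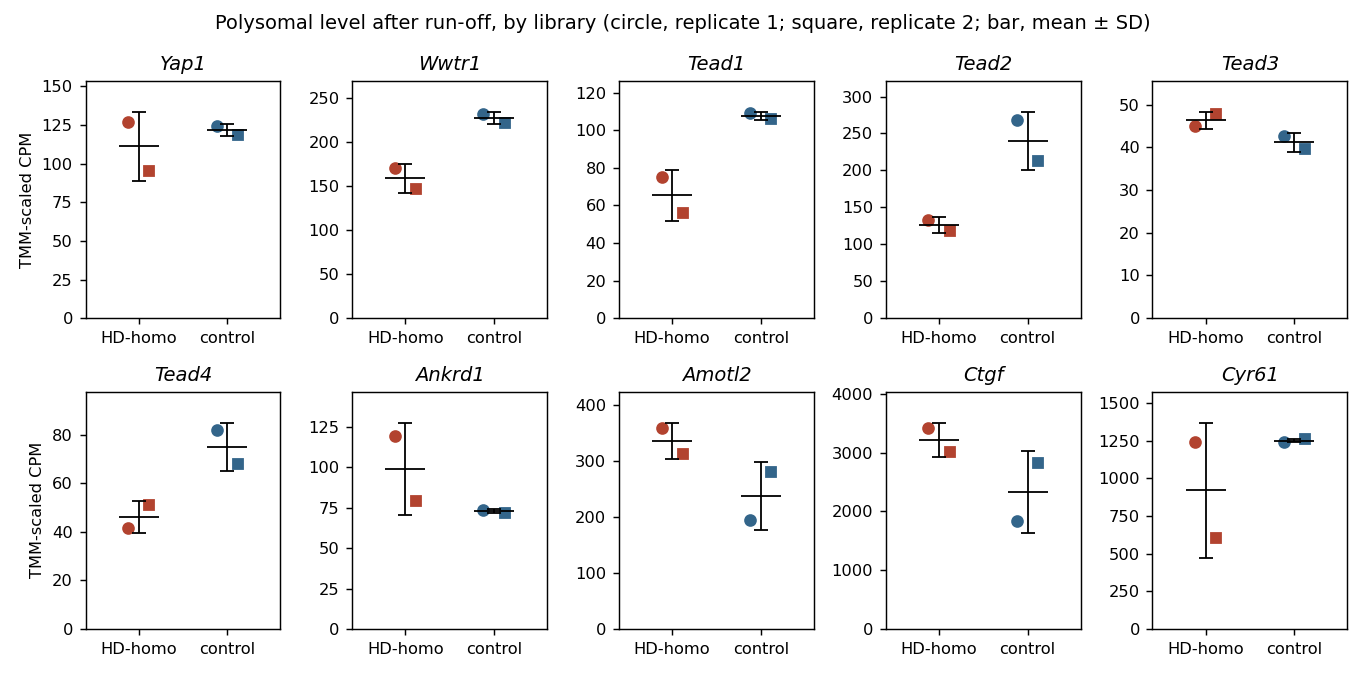
TMM-scaled CPM of each member by library, with HD-homo left of control in each panel; circles are replicate 1, squares replicate 2, and bars the mean ± SD of 2 libraries, each panel with its own axis from 0. Tead1, Tead2, Tead4, Wwtr1 and Cyr61 have both HD-homo libraries below both control libraries, and Tead3, Ankrd1, Amotl2 and Ctgf have both above. Of all tested genes, 28.5% have both below and 28.6% both above. The HD-homo libraries of Cyr61 stand 2.05-fold apart.

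To set the 4 TEAD mRNAs beside each other, CPM were divided by the kilobases of merged exons of each gene in GENCODE M21. Tead2 led in every library, at 27.9 and 24.7 CPM per kilobase in HD-homo and 55.9 and 44.4 in control. Tead4 came second, at 12.8 ± 1.85 per kilobase in HD-homo and 20.8 ± 2.78 in control (SD, n = 2). Tead1 and Tead3 were the lowest, in an order that differed between the groups. In HD-homo Tead3 averaged 6.89 ± 0.29 and Tead1 4.81 ± 1.00 per kilobase, whereas in control Tead3 averaged 6.13 ± 0.32 and Tead1 7.93 ± 0.16. The 4 together summed to 51.6 and 50.02 per kilobase in HD-homo, against 93.1 and 77.0 in control, a ratio of 0.598. The groups did not overlap, and the exact two-sided permutation test gave p = 0.33, the smallest that 2 libraries against 2 allow.

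The share of Tead3 in this sum was 13.0% and 14.2% in HD-homo and 6.83% and 7.66% in control. That of Tead2 was 54.0% and 49.3% in HD-homo and 60.1% and 57.7% in control. Neither share overlapped between the groups. By level, 28.6% of all tested genes had both HD-homo libraries above both control libraries and 28.5% had them below. The shares are parts of 1 sum, so that of Tead3 also rises where the other TEAD levels are lower, and Tead3 itself was not called. Tead1 (9.46% ± 1.76 in HD-homo, 9.40% ± 1.076 in control; SD, n = 2) and Tead4 (25.3% ± 4.202 in HD-homo, 24.5% ± 0.015 in control) held shares whose groups overlapped. Lengths of merged exons count all annotated isoforms, so the order of the genes depends on which isoforms the cells used.

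**Figure D3:**
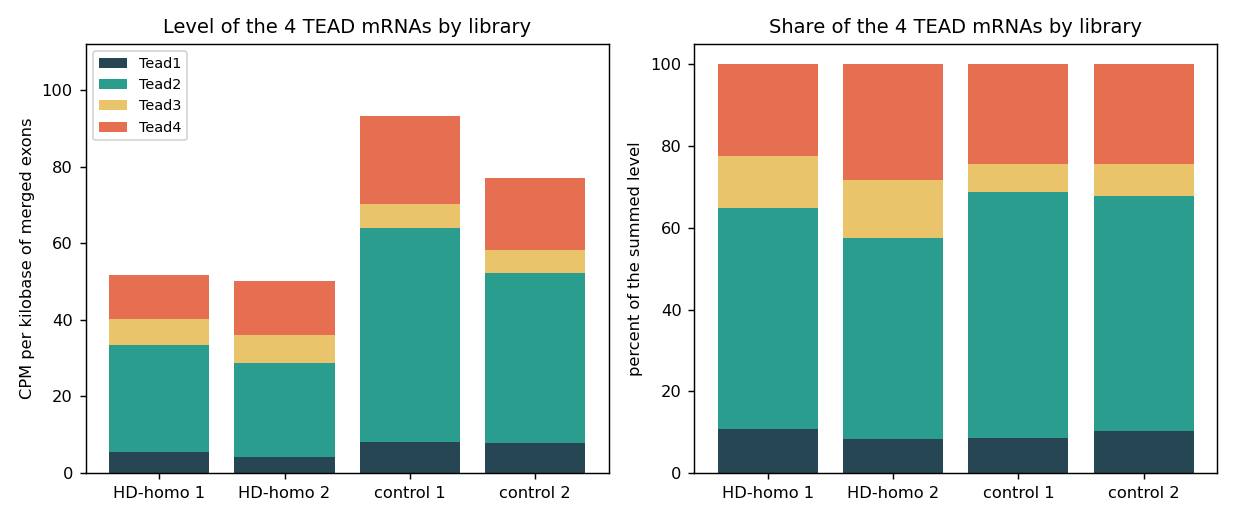
Level (left, CPM per kilobase of merged exons) and share (right, percent of the summed level) of the 4 TEAD mRNAs in each library, HD-homo 1 and 2 followed by control 1 and 2. The summed level is 51.6 and 50.02 in HD-homo and 93.1 and 77.0 in control, and the Tead3 segment takes 13.0% and 14.2% in HD-homo and 6.83% and 7.66% in control.

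Neither coactivator passed the test. Wwtr1, which encodes TAZ, was at 170 and 147 CPM in HD-homo, against 232 and 222 CPM in control. Its groups did not overlap, and its log2 fold change was -0.52 (SE 0.20, edgeR unadjusted p = 0.0231 and adjusted p = 0.0924). Among all tested genes, 28.5% had both HD-homo libraries below both control libraries and 28.6% had them above. Yap1 was at 127 and 95.5 CPM in HD-homo, against 124 and 119 CPM in control. These groups overlapped, the log2 fold change was -0.13 (95% interval -0.58 to 0.33; edgeR adjusted p = 0.749), and its sign turned to 0.06 without HD-homo replicate 2.

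Per kilobase, Wwtr1 was above Yap1 in every library. The ratio of Wwtr1 to Yap1 was 2.60 and 2.98 in HD-homo and 3.61 and 3.62 in control (exact two-sided permutation p = 0.33, the smallest possible and the value for each of the 5 sums and ratios compared, also after Benjamini-Hochberg adjustment). The 2 coactivators together were at 49.3 and 41.1 CPM per kilobase in HD-homo, against 61.9 and 59.2 in control. The summed TEAD level was 1.0 and 1.2 times that of the coactivators in HD-homo and 1.5 and 1.3 times in control. All 3 measures separated the groups without overlap. Whether the coactivators differed less than the TEAD factors was not tested by a model.

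None of the 4 target genes passed the test, and their fold changes had both signs, 3 above 0 and 1 below. Ctgf (CCN2), a secreted protein of the extracellular matrix, was among the most abundant messages of these libraries. It was at 3425 and 3011 CPM in HD-homo, against 1839 and 2829 CPM in control. Both HD-homo values were above both control values, but the 2 control libraries differed by 1.54-fold, a wider gap than 84.7% of genes showed. On the log2 scale the fold change was 0.46 (SE 0.25, edgeR adjusted p = 0.250), and it ran between 0.19 without control replicate 1 and 0.80 without control replicate 2. By level per kilobase Ctgf ranked 11 and 13 in HD-homo and 44 and 16 in control among 11706 protein-coding genes. It lies on chr10:24595442-24598683, where an antisense transcript, Gm15270, overlaps 665 bases of its exons. That transcript had 155 counts over the 4 libraries, against 154324 for Ctgf, and without a stated strand setting the reads of the pair cannot be told apart.

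Cyr61 (CCN1), a secreted relative of Ctgf that binds integrins, was at 1237 and 602 CPM in HD-homo, against 1241 and 1259 CPM in control. Both HD-homo values were below both control values, replicate 1 by little and replicate 2 by far. Its fitted log2 fold change was -0.44 (SE 0.29, edgeR adjusted p = 0.350). It was -1.04 without HD-homo replicate 1, while leaving out the other HD-homo library, replicate 2, gave -0.01, so 1 library decides it. The ratio of Ctgf to Cyr61 per kilobase was 1.95 and 3.53 in HD-homo and 1.05 and 1.59 in control.

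Ankrd1, an ankyrin repeat protein of muscle sarcomeres and nuclei that is strongly induced by YAP, was at 119 and 79.1 CPM in HD-homo, against 73.7 and 71.9 CPM in control. The HD-homo libraries were 1.51-fold apart and both lay above control. Its log2 fold change was 0.45 (SE 0.23, edgeR adjusted p = 0.220), 0.71 without HD-homo replicate 2 (edgeR adjusted p = 0.0494) and 0.14 without HD-homo replicate 1. Amotl2, an angiomotin relative that binds YAP and restrains it, was at 359 and 313 CPM in HD-homo, against 194 and 280 CPM in control. Its groups did not overlap. Its fitted log2 fold change was 0.50 (SE 0.23, edgeR unadjusted p = 0.0451 and adjusted p = 0.152), with 0.27 without control replicate 1 and 0.79 without control replicate 2, neither called. The remaining members lie on chr9:7931999-8004596 (Yap1), chr3:57455649-57575910 (Wwtr1), chr17:28331671-28350817 (Tead3), chr19:36111961-36120099 (Ankrd1), chr9:102716672-102733418 (Amotl2) and chr3:145646976-145649981 (Cyr61) of GRCm38, each span covering the whole annotated gene.

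**Figure D4:**
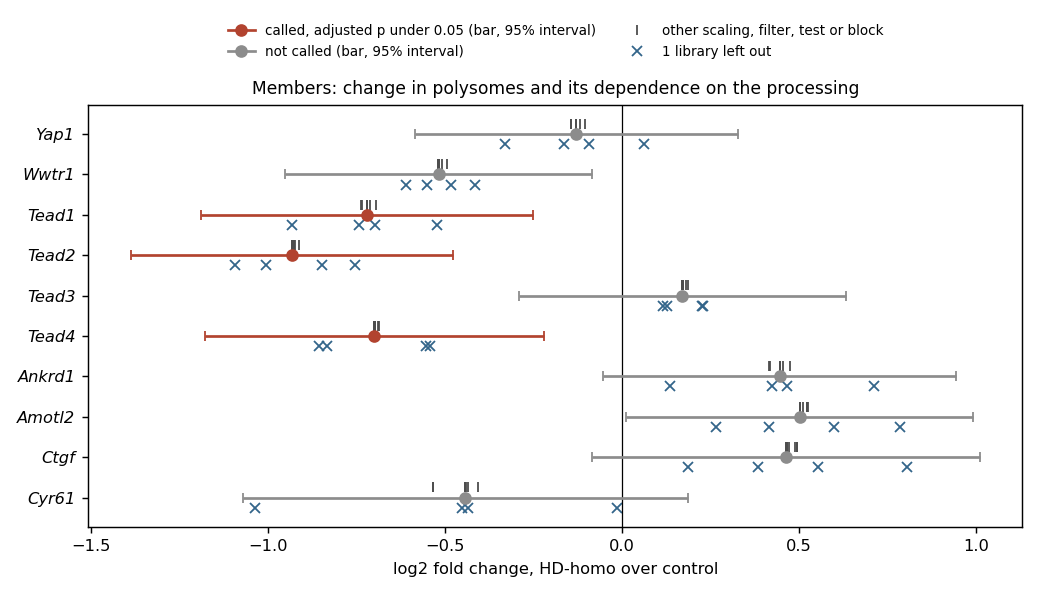
Log2 fold change of HD-homo over control for the 10 members (x axis), with 95% intervals from edgeR; red points passed adjusted p under 0.05 and grey points did not, ticks above a point are the other scalings, filters, tests and the replicate block, and crosses below it leave out 1 library. Tead1, Tead2 and Tead4 are below 0 throughout, and the crosses of Cyr61 run from -1.04 to -0.01.

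Upstream of YAP and TAZ, 24 genes of the cascade and its regulators were counted, and all 24 were tested. Of these, 5 were called lower in HD-homo (20.8%, beside the 10.9% of all tested genes given above). None was called higher and 19 were not called. The share called in either direction was therefore also 20.8%, beside 21.2% of all tested genes. The median log2 fold change was -0.24. Among the 5, Dchs1 and Fat4 had few counts in HD-homo and did not pass a filter of at least 10 counts in every library. With that filter 3 cascade genes were called lower, as were 883 of all genes. By unadjusted p under 0.05, 1 was higher and 5 lower, while DESeq2 called 0 higher and 4 lower and limma-voom 0 higher and 5 lower. The counts over all genes at these settings are those given with the members. The 5 called lower by edgeR at adjusted p under 0.05 were upstream regulators, and none was a core kinase.

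Dchs1, a giant cadherin that is a ligand of Fat4, had 2 and 4 counts in HD-homo, against 157 and 273 counts in control. In scaled CPM that was 0.156 and 0.292 in HD-homo and 11.1 and 17.9 in control (log2 fold change -5.95, SE 0.47, edgeR adjusted p = 8.43e-07). Its receptor Fat4 had 13 and 5 counts in HD-homo, against 24 and 36 in control. Fat4 was called lower (log2 fold change -1.57, edgeR adjusted p = 0.0390), but not by DESeq2 (adjusted p = 0.141), nor in edgeR with scaling to total counts (adjusted p = 0.0604), and not in edgeR without HD-homo replicate 2 (-1.0 on the log2 scale) or without control replicate 2 (-1.31). Fat1, another giant cadherin, was at 19.8 and 17.7 CPM in HD-homo and 36.2 and 39.1 CPM in control (log2 fold change -1.01, edgeR adjusted p = 0.00542).

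Wwc1 encodes KIBRA, a scaffold that helps to activate LATS. It was at 56.6 and 58.1 CPM in HD-homo, against 156 and 141 CPM in control, with pairs that were each close together (log2 fold change -1.37, SE 0.20, edgeR adjusted p = 2.07e-04). Taok2, a kinase of the TAO family that can phosphorylate MST, was at 26.5 and 37.1 CPM in HD-homo, against 68.5 and 79.1 CPM in control (log2 fold change -1.22, edgeR adjusted p = 0.00176). Its relatives Taok1 (log2 fold change -0.30) and Taok3 (-0.11) were not called. Among kinases named for their place in the cascade, outside the rule and with their values known, the MST kinases Stk3 (log2 fold change 0.21) and Stk4 (-0.30) and the LATS kinases Lats1 (-0.27) and Lats2 (-0.52) did not pass, with adjusted p from 0.248 to 0.615 in edgeR. A second row of the table with the symbol Lats2 had 0 counts in all libraries and was not used. Of the abundant members that were not called, Frmd6, an activator of the cascade, had a log2 fold change of 0.43 and Ajuba, a LIM protein that holds LATS back, one of 0.55, with Wwc2, a KIBRA relative, at -0.22 and Mob1a, a coactivator of LATS, at 0.43 (edgeR adjusted p = 0.182 for Frmd6 and 0.0845 for Ajuba).

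A further 18 transcripts of a widely used YAP and TAZ target signature, with Lats2 and Ptpn14 on both lists, included calls in both directions. Of these, 5 were called higher in HD-homo, 4 lower and 9 not at all, with a median log2 fold change of -0.20. That is 27.8% higher and 22.2% lower, beside 10.4% and 10.9% of all tested genes. In the same libraries the summed level of 8 mesenchymal markers, most of it from Col1a1, was 5583 and 5392 CPM in HD-homo and 1117 and 2068 CPM in control. Thy1 had 0 or 1 count in each library. The part of the difference in this sum, or of those in the other marker lists, in this list was not tested.

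The largest difference on this list was in Nt5e, the ecto-enzyme CD73 that makes adenosine outside the cell. It was at 25.1 and 38.3 CPM in HD-homo, against 0.707 and 1.31 CPM in control, where it had only 10 and 20 counts (log2 fold change 4.95, SE 0.37, edgeR adjusted p = 5.16e-07). Igfbp3, which binds insulin-like growth factors, was at 62.6 and 45.5 CPM in HD-homo, against 20.9 and 19.2 CPM in control (log2 fold change 1.43, edgeR adjusted p = 5.97e-04). F3, the tissue factor that starts coagulation, was at 466 and 328 CPM in HD-homo and 222 and 214 CPM in control. Its log2 fold change was 0.86 (edgeR adjusted p = 0.0124), and the call was lost without any 1 library other than HD-homo replicate 2. The kinase gene Nuak2 (0.87) was not called without HD-homo replicate 1 (0.62) or control replicate 2 (0.84), and Dock5 (0.91), an activator of Rac, not without control replicate 1 (0.65).

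Among the lower ones, the receptor tyrosine kinase Axl was at 627 and 631 CPM in HD-homo, against 1047 and 1173 CPM in control. Its log2 fold change was -0.82 (edgeR adjusted p = 0.0118), and -0.74 with no call without control replicate 2. Arhgef17 was at 86.1 and 68.1 CPM in HD-homo and 173 and 157 CPM in control (log2 fold change -1.10, edgeR adjusted p = 0.00156). Fjx1, a secreted or Golgi kinase relative of fly four-jointed, had a log2 fold change of -1.36. Crim1, a membrane protein that binds BMPs, had one of -1.22, which was -0.75 with no call without control replicate 2. Of abundant members that did not pass, Asap1 was at -0.14 and Gadd45a, a stress and DNA damage gene, at 0.51 on the log2 scale. Myof, a membrane protein of muscle cell fusion, was at -0.38 and the secreted matrix protein gene Ccdc80 at -0.58.

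**Figure D5:**
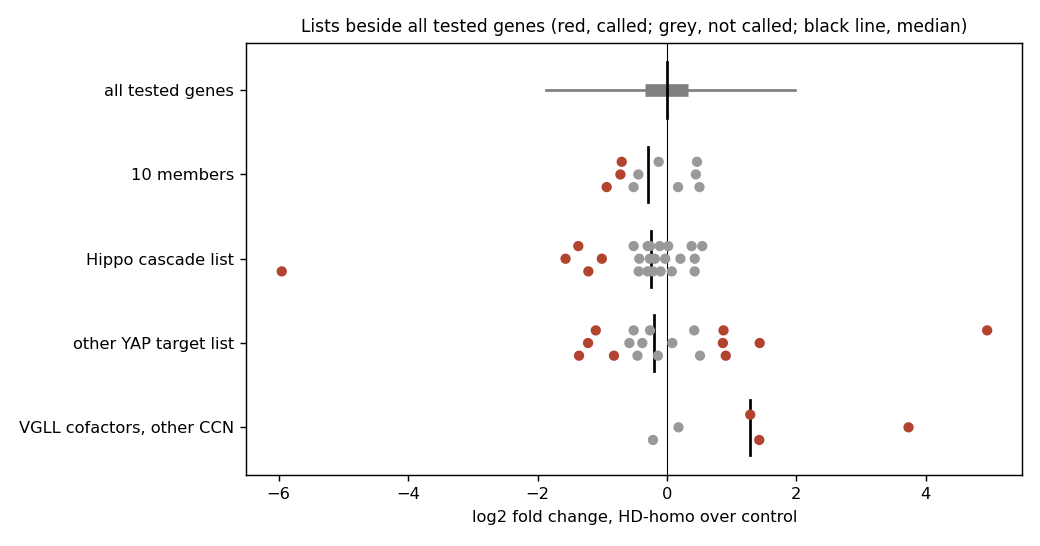
Log2 fold change of HD-homo over control (x axis) for the 10 members, the 24 cascade genes, the 18 other YAP targets and the 5 tested VGLL and other CCN genes, below all 12961 tested genes (bar, 25th to 75th percentile; line, 5th to 95th). Red points were called, grey were not, and black lines are medians, which are -0.29 for the members, -0.24 for the cascade and -0.20 for the other targets.

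Vestigial-like (VGLL) proteins bind TEAD factors in place of YAP. Vgll3 was at 238 and 169 CPM in HD-homo, against 82.5 and 84.4 CPM in control, and was called higher (log2 fold change 1.29, SE 0.22, edgeR adjusted p = 7.07e-04). Vgll4, which competes with YAP for TEAD, was at 60.5 and 44.9 CPM in HD-homo and 68.6 and 53.9 CPM in control, with no call and overlapping groups. Vgll1 had 0 counts in every library, and Vgll2 had 0 in all but control replicate 1, which had 3.

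Ctgf and Cyr61 belong to the CCN family of matrix-associated secreted proteins, of which 3 of the other 4 genes could be tested. Wisp2 (CCN5) was at 52.3 and 37.5 CPM in HD-homo, against 3.32 and 3.41 CPM in control (log2 fold change 3.73, SE 0.28, edgeR adjusted p = 5.89e-07). Nov (CCN3) was at 20.5 and 13.1 CPM in HD-homo, against 6.01 and 6.50 CPM in control (log2 fold change 1.43, edgeR adjusted p = 0.00234). Wisp1 (CCN4) was at 271 and 166 CPM in HD-homo and 172 and 215 CPM in control, with overlapping groups and no call. Wisp3 had 0 counts. Of the mesenchymal markers given above, Col1a1, Col1a2 and Pdgfra were also higher in HD-homo. Pdgfrb and Prrx1 had overlapping groups, and Col3a1 and Twist1 were not called. The part of these markers in the CCN differences was not tested.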

How the data were processed

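PS-RRA-mRNA-Seq libraries, of polysomal mRNA after the run-off by the design text but of total RNA by the sample labels, were compared, 2 of HD-homo and 2 of control cells. Per the submitters' processing notes and the methods, the authors used cutadapt for trimming, Bowtie 1.1.2 against rRNA and tRNA, and RSEM 1.3.0 on GRCm38.p5 for quantification. They deposited whole-number counts per gene. Whether counting used strand, and how RSEM values became whole numbers, is not given in the sources used here. A scaled table of the authors was not used. Nothing in the labels says that the 2 libraries of a group came from separate cultures, while the study's legend gives independent experiments, and p-values measure only the spread between these libraries.

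Genes passing filterByExpr were fitted in edgeR 4.0.16 (R 4.3.3) with TMM scaling and the group as the only term, with adjusted p under 0.05 as the threshold over all tested genes. Standard errors were derived from the F statistic. SD and n are of TMM-scaled CPM over 2 libraries. The fit was tested on simulated data. The libraries of a group differed by more than counting error (chi-square per degree of freedom 21.5 for HD-homo and 20.3 for control). Places and lengths came from GENCODE M21 on GRCm38 by gene ID, promoters from RefSeq. Members and lists were chosen with earlier results of these data known. Named were all members, up to 8 called genes per list and direction by lowest p, up to 4 uncalled by highest CPM, and the VGLL and CCN genes. Alternatives covered scaling, filter, DESeq2 1.42.0, limma-voom (limma 3.58.1), the replicate block, a stricter threshold and each library left out. A fit with 1 library left out has only 1 in that group, so its spread comes from the other group alone.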

Additional observations from a re-analysis of the deposited data

How the results depend on the processing

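Of 120 values of the 10 members' log2 fold changes under 12 alternatives each, 103 kept their direction and their side of the threshold, 10 were no longer called, 6 became called and 1 reversed: with 1 library left out, Yap1 ran from -0.33 to 0.062 (without HD-homo replicate 2). The lost calls were all of the 3 called members, 5 of the 12 alternatives for Tead1, 4 for Tead4 and 1 for Tead2. Tead2 lost its call only without control replicate 1. The stricter threshold used the same fit as the main result, so no direction could change there. With at least 10 counts in every library, 815 genes were higher, 883 lower and 3 cascade genes lower. Dchs1 and Fat4 did not pass that filter. At adjusted p under 0.01, 1 member was lower and 2 other YAP targets were higher. With 1 library left out, 0 to 1 members were higher and 0 to 3 lower, 3 to 5 other YAP targets were higher and 2 to 5 lower, and 4 to 6 cascade genes were lower; over all genes 1168 to 1262 were higher and 1200 to 1327 lower. With the replicate number as a block (replicate block), 2126 genes were higher and 2350 lower. Of the members, 2 were higher (Ankrd1 and Amotl2) and 5 lower (the 3 TEAD genes with Wwtr1 and Cyr61). In the same fit 3 cascade genes were higher and 7 lower, and 6 other YAP targets were higher and 6 lower. Deviations of same-numbered libraries from their group means correlated at 0.39 across genes, but only a number ties these libraries, and 2 pairs cannot show that it marks a shared experiment. The cause of the changes under these alternatives was not tested. Counting error was small beside the spread between libraries, and standard errors of 0.20 to 0.29 on the log2 scale limited what could be detected in the members.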
